A study of Mus musculus with 120 samples.

Results

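The extra-embryonic ectoderm (ExE) of the mouse embryo was compared with the epiblast (Epi) at embryonic day E6.5. The comparison covered every gene with at least 10 counts in 2 or more of the 4 libraries of these groups. Of the 23154 genes in the deposited embryo table, 12178 met that rule, against 12710 for the corresponding libraries of E7.0. The ExE group was the extra-embryonic part dissected from ICR embryos at 6.5 days post coitum, and the Epi group was the embryonic part of embryos of the same strain and age. ICR is an outbred stock, the labels name no engineered allele and no agent for either group, and each group had 2 RNA libraries, called replicates 1 and 2. Of the 120 samples in the series, 18 are embryo RNA libraries in 9 groups of 2. The others used here are ExE, A and P at E7.0 and ExE, A, AM and P at E7.5, where A, P and AM are sub-regions of the embryonic part as the labels name them. The question was which genes differ between the extra-embryonic and the embryonic part at E6.5, a stage the submitters place before the streak.

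The extra-embryonic ectoderm descends from the trophectoderm and is the source of the chorion and much of the placenta. It holds trophoblast stem cells, which are kept by fibroblast growth factor signals from the neighbouring epiblast, and it in turn sends bone morphogenetic protein (BMP) signals and provides the convertases that mature Nodal. The epiblast is the pluripotent epithelium from which the body of the embryo forms, and both tissues are wrapped in visceral endoderm.

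A pair of transcription factors that were called in opposite directions, Elf5 in ExE and Pou5f1 in Epi, is shown with the DNA at its annotated starts. Elf5 is the ETS-family factor of trophoblast stem cells, and methylation of its promoter is known to keep it silent in embryonic lineages. Pou5f1 encodes OCT4, the POU factor of pluripotent cells. The windows run from 250 bases before to 50 bases after each of the 2 annotated starts of each gene, are taken from RefSeq on GRCm38.p6, and carry every CpG (CG) in capitals, the base pair step that DNA methyltransferases act on.
Elf5, start 1, chr2:103411848-103412147, plus strand: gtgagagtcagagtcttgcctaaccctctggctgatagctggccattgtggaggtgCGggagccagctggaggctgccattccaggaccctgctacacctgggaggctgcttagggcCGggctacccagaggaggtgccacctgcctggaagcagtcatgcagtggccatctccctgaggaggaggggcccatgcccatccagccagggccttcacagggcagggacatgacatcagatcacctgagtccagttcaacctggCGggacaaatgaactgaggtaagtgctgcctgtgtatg
Elf5, start 2, chr2:103423818-103424117, plus strand: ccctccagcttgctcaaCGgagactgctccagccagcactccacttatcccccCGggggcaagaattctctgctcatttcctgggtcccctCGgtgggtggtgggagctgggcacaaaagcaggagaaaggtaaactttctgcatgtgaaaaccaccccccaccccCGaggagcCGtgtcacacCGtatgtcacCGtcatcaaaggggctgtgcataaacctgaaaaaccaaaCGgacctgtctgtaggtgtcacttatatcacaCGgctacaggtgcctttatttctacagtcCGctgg
Pou5f1, start 1, chr17:35505782-35506081, plus strand: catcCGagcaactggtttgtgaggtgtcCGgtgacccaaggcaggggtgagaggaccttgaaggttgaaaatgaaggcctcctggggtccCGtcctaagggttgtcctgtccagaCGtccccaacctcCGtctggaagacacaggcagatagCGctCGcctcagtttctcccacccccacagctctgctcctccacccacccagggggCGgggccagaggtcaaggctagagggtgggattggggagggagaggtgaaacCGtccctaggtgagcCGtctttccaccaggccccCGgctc
Pou5f1, start 2, chr17:35508557-35508856, plus strand: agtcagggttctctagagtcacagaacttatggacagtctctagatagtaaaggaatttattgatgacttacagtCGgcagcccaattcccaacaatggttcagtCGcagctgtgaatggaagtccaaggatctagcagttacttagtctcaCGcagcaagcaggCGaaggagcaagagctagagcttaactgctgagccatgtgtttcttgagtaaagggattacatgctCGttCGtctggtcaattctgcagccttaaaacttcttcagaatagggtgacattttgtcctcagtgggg
The windows at Elf5 held 3 and 10 CpGs and those at Pou5f1 held 11 and 6. Of the 32851 windows in the table, 31.4% have 3 or fewer CpGs and 60.4% have 11 or fewer, so none of these windows was rich in them. The letters GGAATG, the core of the TEAD motif, were found on either strand in the first Elf5 window and in none of the other 3, and 14.7% of all windows hold them. Methylation at these windows was not analysed here.

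The ExE libraries held 9.78 and 7.08 M counts (M, mega) and the Epi libraries 10.2 and 11.9 M. The ribosomal transcript Rn45s took 1.40 to 6.91% of counts in ExE and 1.20 to 4.32% in Epi, higher in replicate 2 of both parts. Transcripts of the Y chromosome were present in replicate 1 and nearly absent from replicate 2 in both parts. Ddx3y stood at 82.2 and 0.142 CPM in ExE replicates 1 and 2, and at 76.8 and 0 CPM in Epi replicates 1 and 2. Xist, the transcript of the silenced X chromosome, stood at 14.96 and 202 CPM in ExE and at 6.40 and 196 CPM in Epi. Replicate 1 was thus high in Y-linked transcripts and replicate 2 in Xist, in both parts alike. Of the 6 sex-linked check genes 0 were called, where 8.84% of all genes tested were. The spread of Ddx3y and Xist within each part left little room for a call, so this count cannot speak to an effect of sex. How many embryos each library holds is not said in the labels. The p-values cover no more than the spread between the 2 libraries of a group, which differed in these transcripts. Levels are given in CPM, counts per M library counts after scaling, and compare libraries, not genes. In dissected tissue, fewer cells of a type and less RNA per cell cannot be told apart.

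Among the 12178 genes, 529 (4.34%) were higher and 734 (6.03%) lower in ExE than in Epi, together 10.4%, by edgeR's quasi-likelihood test at a Benjamini-Hochberg adjusted p under 0.05. Over all 14523 genes tested, 532 (3.66%) were higher and 752 (5.18%) lower, together 8.84%. The median log2 fold change was 0.01 over the 12178 genes and 0.03 over all tested. Both ExE libraries lay on one side of both Epi libraries in 66.2% of the 12178 genes and in 1283 of the 1284 called genes; the exception was Grb14. Of the 12178 genes, 10155 had at least 10 counts in all 4 libraries, and these held 435 of the higher and 435 of the lower calls. A further 342 reached 10 counts in both ExE libraries alone, with 69 called higher, and 534 in both Epi libraries alone, with 218 called lower. Genes of these last classes entered through the part where they were high. Scaling by total counts instead of TMM (trimmed mean of M values) raised the median of all genes by 0.32 on the log2 scale and turned the share of called genes that were higher to 63.2%, against 41.4%. Without Epi replicate 1, 89 genes were higher and 287 lower, and without ExE replicate 1 these counts were 162 and 202.

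**Figure D1:**
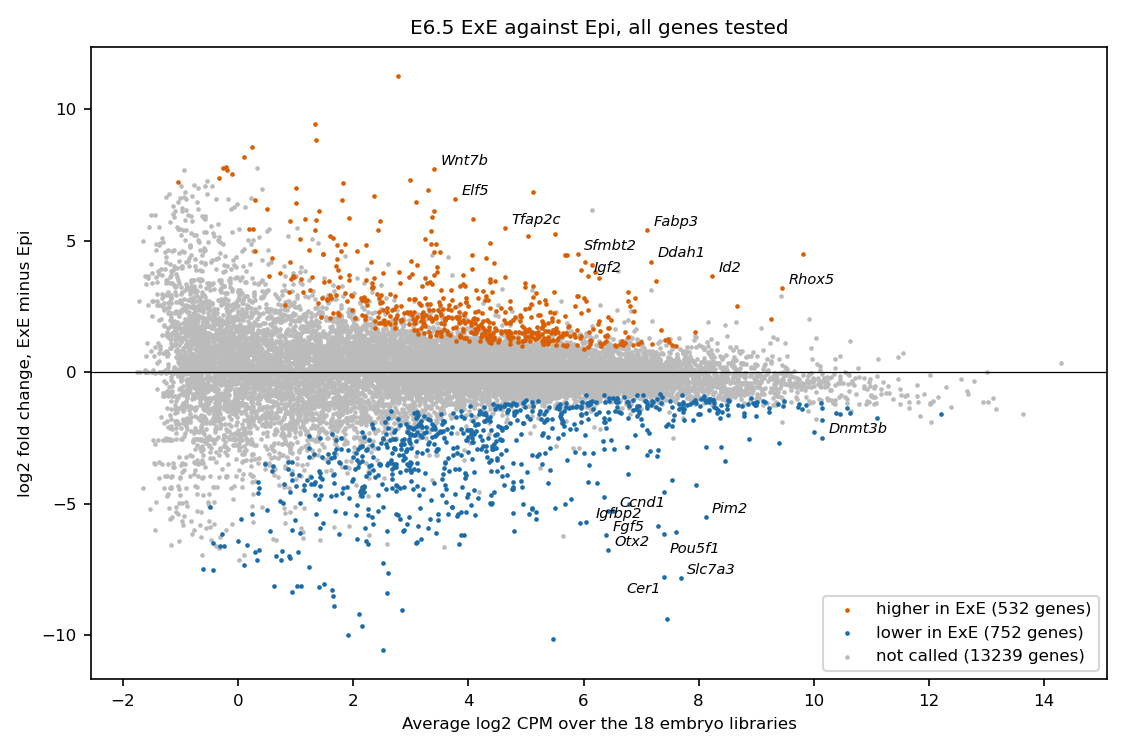
Each point is 1 of the 14523 genes tested. The x axis is the average log2 CPM over the 18 embryo libraries and the y axis the log2 fold change of ExE minus Epi at E6.5. Orange genes (532) were higher and blue genes (752) lower in ExE, and grey genes were not called. Fitted values of genes with 3 counts or fewer in a part depend on the prior count.

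Among called genes whose log2 CPM averaged 3 or more, the largest rises in ExE were led by secreted signals and transcription factors. Wnt7b, a Wnt ligand (chr15:85535437-85581821), had 59.2 and 58.7 CPM in ExE, against 0.343 and 0.198 CPM in Epi. Its log2 fold change was 7.73 ± 0.78 (SE; edgeR adjusted p = 2.00e-05). Bmp8b, a BMP ligand (chr4:123104308-123126094), had 56.8 and 36.2 CPM in ExE and 0.571 and 0.198 CPM in Epi (6.91 ± 0.92, edgeR adjusted p = 0.000198). In both genes the lowest ExE library lay far above the highest Epi library. Elf5 (chr2:103412098-103450989) had 68.3 and 33.9 CPM in ExE and 0.229 and 0.793 CPM in Epi (6.58 ± 0.83, edgeR adjusted p = 0.000159). Esrrb, an orphan nuclear receptor of trophoblast stem cells (chr12:86361117-86521628), had 46.9 and 45.1 CPM in ExE and 0.800 and 0.496 CPM in Epi (6.14 ± 0.66, edgeR adjusted p = 2.28e-05). The ExE libraries of Esrrb were nearly equal and those of Elf5 were further apart. The choice of the largest rises required groups that do not overlap. Tfap2c, the AP-2 gamma factor of trophoblast (chr2:172545678-172558622), had 90.2 and 81.1 CPM in ExE and 1.49 and 2.28 CPM in Epi (5.49 ± 0.67). Fabp3, a carrier of fatty acids, had 271 and 435 CPM in ExE and 9.14 and 7.73 CPM in Epi (5.39 ± 0.57). Another 4 of the 12 largest rises, AU018091, 3830417A13Rik, Gm9 and Gm1673, are named only by clone or prediction and rose by 5.35 to 6.85 on the log2 scale. The call of 3830417A13Rik ended without Epi replicate 1 (edgeR adjusted p = 0.0519), and those of the other 9 genes described here remained without any 1 of the 4 libraries.

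**Figure D2:**
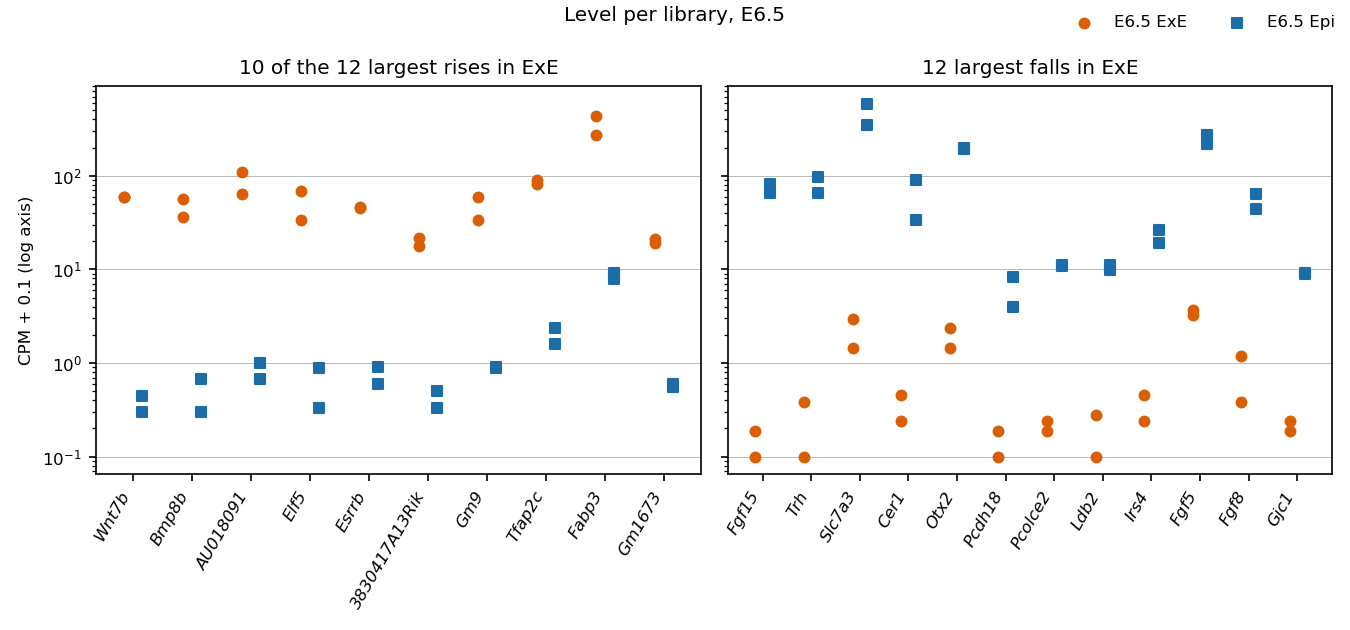
Levels of 10 of the 12 largest rises (left) and the 12 largest falls (right) among genes of average log2 CPM 3 or more, with CPM plus 0.1 on a log axis. Each orange circle is an ExE library and each blue square an Epi library, 2 of each per gene. The groups do not overlap for any gene, which the choice of these genes required.

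Sfmbt2, Ddah1, Wnt7b and Baz1a were among the 5 rises with the smallest p. Sfmbt2, an imprinted Polycomb-family gene needed for trophoblast (chr2:10370440-10595253), had 258 and 204 CPM in ExE and 8.34 and 12 CPM in Epi (4.5 ± 0.40, edgeR adjusted p = 6.93e-06). Ddah1, which breaks down methylated arginines that inhibit nitric oxide synthesis, had 417 and 419 CPM in ExE and 20.9 and 24.5 CPM in Epi (4.2 ± 0.38). Baz1a, a subunit of a chromatin remodelling complex, had 90.1 and 79.3 CPM in ExE and 6.17 and 10.1 CPM in Epi (3.37 ± 0.36). In all of these the ExE libraries lay within a narrow band well above Epi, and the 4 calls remained without any 1 of the 4 libraries.

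Of 19 listed trophoblast transcription factors, all tested, 13 were higher in ExE and 0 lower, where 3.66% and 5.18% of all genes tested were. Their median log2 fold change was 3.61, against 0.03 over all genes. Besides Elf5, Esrrb and Tfap2c, the called members included Id2, which blocks helix-loop-helix factors from binding DNA, with 824 and 625 CPM in ExE and 47.5 and 66.7 CPM in Epi (3.66 ± 0.52). Klf5, a Kruppel-like factor of trophectoderm, had 34.3 and 30.5 CPM in ExE and 1.26 and 2.18 CPM in Epi (4.22 ± 0.67). Zfp42 (REX1) and Nr0b1 (DAX1), known also from naive embryonic stem cells, rose by 3.61 ± 0.56 and 4.55 ± 0.58. Gata3, a trophectoderm factor, had 16.0 and 24.5 CPM in ExE and 0.229 and 1.09 CPM in Epi (4.88 ± 1.19). Gata2 had 6.22 and 8.08 CPM in ExE against 0 and 0.298 CPM in Epi, a ratio of ExE to Epi of 43.6 with a 95% counting interval of 14.6 to 214. Sox21 had 11.4 and 10.3 CPM in ExE and 0 and 0.198 CPM in Epi, a ratio of ExE to Epi of 103 (28.2 to 859). The other 6 did not pass. Cdx2, the caudal factor of trophectoderm, was among them at 10.2 and 7.52 CPM in ExE and 0.571 and 1.19 CPM in Epi (3.30 ± 1.01, edgeR adjusted p = 0.0518). Eomes, a T-box factor of trophoblast stem cells and of the streak, stood at 123 and 95.03 CPM in ExE and 89.1 and 111 CPM in Epi, with overlapping libraries (0.12 ± 0.57). Elf3, Msx2, Dlx3 and Tfap2a also did not pass. Under 13 alternative settings, Cdx2 and Elf3 were each called higher in 7, Msx2 and Dlx3 in 1 and Eomes in 0. Tfap2a was called in 0 of the 10 settings that tested it. Without Epi replicate 1, 7 of the 13 calls were left, and without any 1 of the other 3 libraries 10. The calls of Gata2, Gata3 and Tead4 ended without each of the 4.

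Of 17 tested ligands, receptors and convertases of the extra-embryonic tissue, 13 were higher in ExE and 0 lower (median 3.57). Over all genes tested these shares were 3.66% and 5.18%. Bmp4, the ExE ligand that induces germ cells and mesoderm, had 29.3 and 35.2 CPM in ExE and 1.37 and 4.07 CPM in Epi (3.55 ± 0.78, edgeR adjusted p = 0.00993). Wnt6 had 21.2 and 24.4 CPM in ExE and 0.114 and 0.298 CPM in Epi (6.69 ± 0.76). Fgfr2, the receptor through which trophoblast stem cells read fibroblast growth factors, had 70.4 and 38.3 CPM in ExE and 5.83 and 4.07 CPM in Epi (3.46 ± 0.59). In each of these genes the ExE libraries were all above those of Epi, and 1283 of the 1284 called genes lacked overlap. The convertases split at the threshold. Pcsk6 (PACE4) had 16.8 and 15.6 CPM in ExE and 3.09 and 1.98 CPM in Epi (2.67 ± 0.75, edgeR adjusted p = 0.0350), a call that ended without each of the 4 libraries. Furin had 7.21 and 10.9 CPM in ExE and 1.6 and 4.17 CPM in Epi and did not pass (1.64 ± 0.76, edgeR adjusted p = 0.206). Among X-linked placental genes of the list, Plac1 rose by 3.80 ± 0.94, and the homeobox genes Rhox5 and Rhox6 by 3.19 ± 0.79 and 3.92 ± 0.69. Rhox9 had 3.70 and 2.98 CPM in ExE and 0.114 and 0.198 CPM in Epi, a ratio of ExE to Epi of 21.4 (7.01 to 107). Rhox genes are related copies in 1 cluster, and how reads that match several of them were counted is not given in the sources used here. Without Epi replicate 1, 6 of the 13 calls were left, and without any 1 of the other 3 libraries 10.

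Of 18 markers of ectoplacental cone and giant cells, 9 were tested and 1 was called, the trophoblast factor Ascl2, with 28.0 and 31.2 CPM in ExE and 2.74 and 1.49 CPM in Epi (3.81 ± 0.63). Prl3d1, a giant-cell hormone gene, had 2.16 and 1.28 CPM in ExE and 0.229 and 0.0992 CPM in Epi and did not pass. Hand1, which giant cells share with extra-embryonic mesoderm, stood at 12.1 and 10.5 CPM in ExE and 0.571 and 0.496 CPM in Epi (4.38 ± 1.47, edgeR adjusted p = 0.0878). Of 12 tested markers of extra-embryonic mesoderm and early blood, 3 were higher, Bmp4, Gata1 and Ahnak. Gata1, the X-linked erythroid factor, had 20.4 and 25.8 CPM in ExE and 1.49 and 2.78 CPM in Epi (3.42 ± 0.51). Tal1, the early blood factor, had 0 counts in both ExE libraries, and the embryonic globin Hbb-bh1 had 0 in all 4 libraries. Of 8 tested markers of maternal decidua and blood, 0 were called, where 8.84% of all genes tested were. At that share, neither this count nor the 1 of 9 above says much about these markers. The 18 genes listed for decidua and blood summed to 5.86 and 11.2 CPM in ExE and 7.43 and 6.25 CPM in Epi. Of them, 7 had 0 counts in all 4 libraries.

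**Figure D3:**
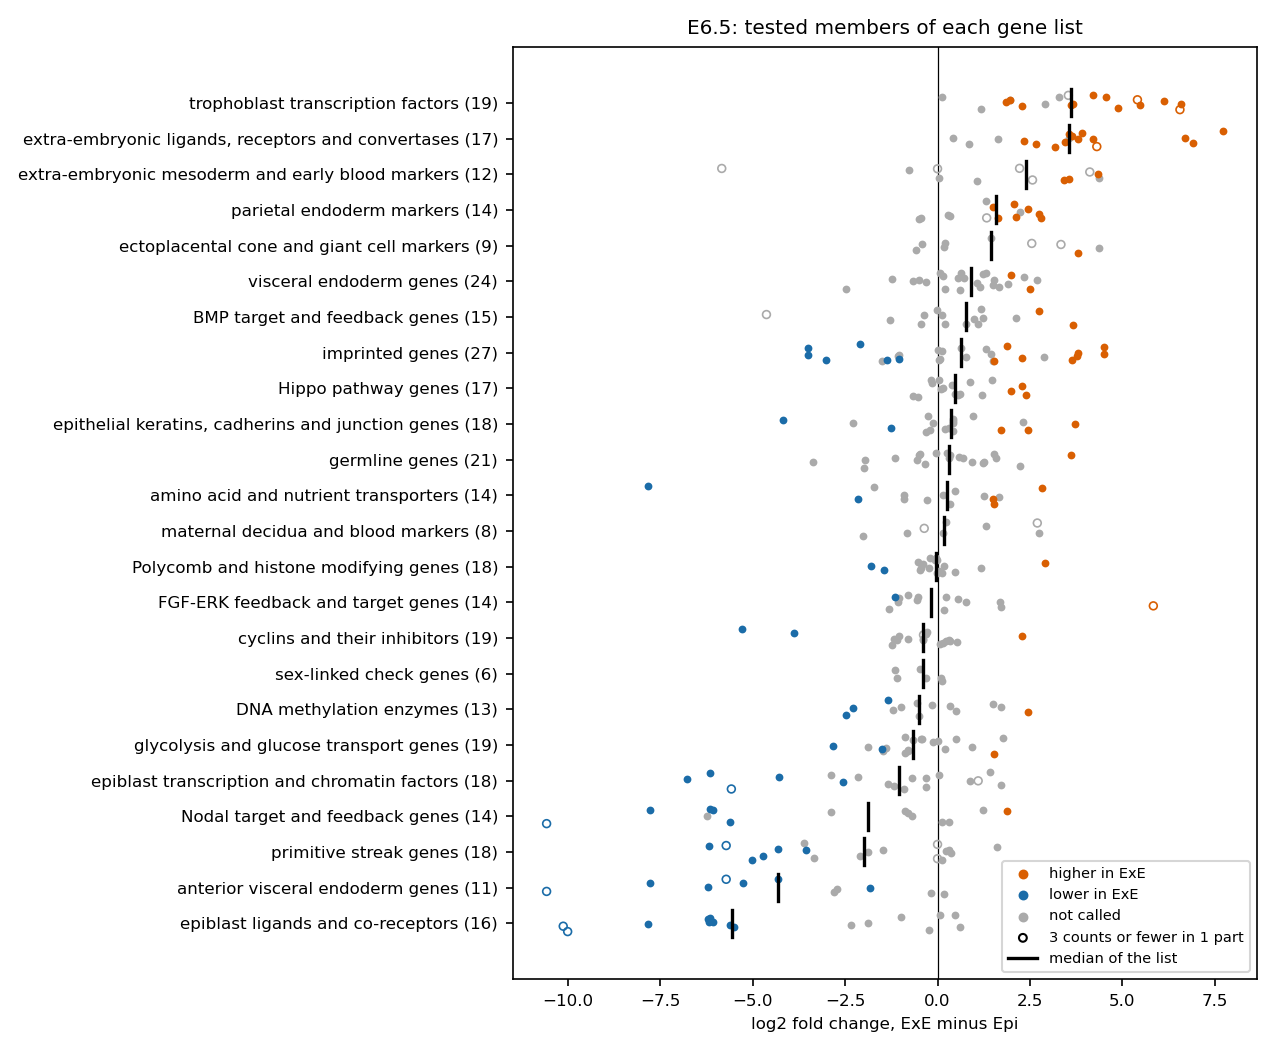
The log2 fold change of ExE minus Epi at E6.5 (x axis) is shown for each tested member of the 24 gene lists, with the number tested in brackets and lists ordered by their median (black bar). Orange members were higher and blue members lower in ExE, grey ones were not called. Open points had 3 counts or fewer in 1 part, so that their fitted value depends on the prior count. The list of trophoblast transcription factors lies at the top (median 3.61), and that of ectoplacental cone and giant cell markers lower (1.45). The epiblast list of ligands and co-receptors, which also holds Pim2 and Slc7a3, lies at the bottom (-5.56).

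The 12 largest falls in ExE were taken among called genes without overlap whose log2 CPM averaged 3 or more. They included ligands of the epiblast, a transporter, a homeobox factor and adhesion, adaptor and matrix genes. Otx2, a homeobox factor of the anterior epiblast and visceral endoderm (chr14:48656781-48667644), had 1.35 and 2.27 CPM in ExE and 192 and 200 CPM in Epi (-6.78 ± 0.80, edgeR adjusted p = 0.000109). Slc7a3, a transporter of cationic amino acids on the X chromosome, had 1.35 and 2.84 CPM in ExE and 589 and 346 CPM in Epi (-7.84 ± 1.22). Fgf15 (chr7:144896532-144900953), a fibroblast growth factor, had 1 count in ExE over both libraries and 81.0 and 65.6 CPM in Epi. Its ratio of Epi to ExE was 1321, with a counting interval of 237 to 52210. Fgf5, the marker ligand of the primed epiblast, had 3.15 and 3.55 CPM in ExE and 272 and 219 CPM in Epi (-6.20 ± 0.95). Fgf8, made at the streak side of the epiblast, had 1.08 and 0.284 CPM in ExE and 44.3 and 64.0 CPM in Epi (-6.19 ± 1.06). Trh, the precursor of thyrotropin-releasing hormone, had 0 and 0.284 CPM in ExE and 66.0 and 97.4 CPM in Epi, a ratio of Epi to ExE of 751 (208 to 6211). Irs4, an X-linked adaptor of insulin receptor signalling, fell by 6.35 ± 1.24 on the log2 scale. Pcdh18, Pcolce2, Ldb2 and Gjc1 had at most 3 counts in ExE over both libraries, and their ratios of Epi to ExE lay between 80.4 and 107. The genes with the smallest p were Igfbp2, Efna5, Ccnd1, Car14 and Ifitm2. Igfbp2, a binding protein of insulin-like growth factors, had 5.86 and 6.95 CPM in ExE and 320 and 422 CPM in Epi (-5.86 ± 0.46, edgeR adjusted p = 5.10e-06). Efna5, a membrane-bound ephrin, had 0.721 and 0.993 CPM in ExE and 50.2 and 32.4 CPM in Epi (-5.60 ± 0.47). Car14, a membrane carbonic anhydrase, and Ifitm2, an interferon-induced membrane protein, fell by 4.54 ± 0.41 and 4.09 ± 0.38. In every one of these genes both ExE libraries lay below both Epi libraries. The choice of the 12 largest falls required this, and 1283 of the 1284 called genes lacked overlap. The calls of Cer1 and Irs4 ended without ExE replicate 1 (edgeR adjusted p = 0.121 and 0.0764) and without ExE replicate 2 (0.0895 and 0.0629). Gjc1 lost its call without ExE replicate 1 (0.0554), Pcdh18 without ExE replicate 1, ExE replicate 2 or Epi replicate 1 (0.13, 0.0878 and 0.0691), and Trh without each of the 4 libraries (0.0756 to 0.229).

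Of 18 tested transcription and chromatin factors of the epiblast, 5 were lower in ExE and 0 higher (median -1.05). Over all genes tested, 5.18% were lower and 3.66% higher. Pou5f1 (chr17:35506032-35510777) had 5.41 and 3.404 CPM in ExE and 244 and 399 CPM in Epi (-6.17 ± 0.98, edgeR adjusted p = 0.00183). Nanog, a homeobox factor of pluripotency, had 6.40 and 8.94 CPM in ExE and 46.4 and 43.1 CPM in Epi (-2.55 ± 0.52). Sall2, a zinc finger factor, had 3.43 and 1.99 CPM in ExE and 50.3 and 58.7 CPM in Epi (-4.30 ± 0.54). Foxd3, a forkhead factor of pluripotent cells, had 1 count in ExE and 2.51 and 4.07 CPM in Epi, a ratio of Epi to ExE of 60.7 (10.5 to 2435). The other 13 did not pass. Sox2, which both lineages need, had 22.2 and 11.2 CPM in ExE and 8.46 and 9.62 CPM in Epi, so that both ExE values were the higher ones (0.89 ± 0.60). Utf1, Sall4 and Foxh1 had log2 fold changes of -1.35 ± 0.62, -1.19 ± 0.49 and -2.88 ± 1.02 without passing, and their libraries did not overlap. The call of Foxd3 ended without each of the 4 libraries and with total-count scaling, and that of Nanog without ExE replicate 1 (edgeR adjusted p = 0.114).

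A list of 16 tested epiblast genes holds ligands, receptors and co-receptors, together with the kinase gene Pim2 and the transporter gene Slc7a3, and 9 of them were lower in ExE and 0 higher. Their median of -5.56 was the lowest of the 24 lists. Over all genes tested, 5.18% were lower and 3.66% higher. Nodal, the TGF-beta ligand that patterns the epiblast (chr10:61417972-61425338), had 0.631 and 1.13 CPM in ExE and 34.8 and 49.4 CPM in Epi (-5.61 ± 0.92, edgeR adjusted p = 0.00116). Tdgf1 (Cripto), its co-receptor, had 8.74 and 2.84 CPM in ExE and 475 and 333 CPM in Epi (-6.09 ± 1.63, edgeR adjusted p = 0.0473). Gdf3, a related ligand, had 0.0901 and 0.426 CPM in ExE and 14.2 and 20.7 CPM in Epi (-6.16 ± 1.35). Fgf4, the factor that maintains trophoblast stem cells, had 0 counts in ExE and 12.9 and 9.22 CPM in Epi, and was at least 66.2-fold lower in ExE by a floor of 3 counts over the group. Pim2, a serine/threonine kinase on the X chromosome, had 16.4 and 21.1 CPM in ExE and 848 and 854 CPM in Epi (-5.50 ± 1.08). The listed receptors did not pass. Fgfr1, the receptor of the epiblast, stood at 21.5 and 22.1 CPM in ExE and 22.4 and 29.2 CPM in Epi (-0.24 ± 0.35), Acvr2b at 0.06 ± 0.44 and Bmpr1a at 0.61 ± 0.46 on the log2 scale. Cfc1, a second co-receptor of the Cripto family, had 31.0 and 39.6 CPM in ExE and 20.0 and 30.8 CPM in Epi and did not pass (0.47 ± 0.70). Without ExE replicate 1, 5 of the 9 calls were left, and without ExE replicate 2, 6. The call of Tdgf1 ended without each of the 4 libraries, that of Fgf4 without ExE replicate 1 (edgeR adjusted p = 0.0573), and those of Gdf3 and Pim2 without either ExE library.

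Of 18 tested genes of the primitive streak, 6 were lower in ExE and 0 higher (median -1.99), where 5.18% and 3.66% of all genes tested were. Mixl1, a homeobox gene of early mesendoderm, had 6.94 and 4.11 CPM in ExE and 209 and 153 CPM in Epi (-5.01 ± 1.20). Fst (follistatin), an activin antagonist, had 1.17 and 4.82 CPM in ExE and 96.2 and 56.2 CPM in Epi (-4.73 ± 1.01). Lhx1, a homeobox factor of the organiser and anterior endoderm, had 0.991 and 0.567 CPM in ExE and 13.0 and 19.3 CPM in Epi (-4.31 ± 0.72). T (brachyury), the streak T-box gene, had 8.47 and 2.69 CPM in ExE and 31.9 and 17.0 CPM in Epi and did not pass (-2.09 ± 1.0, edgeR adjusted p = 0.235). Mesp1, a gene of nascent mesoderm, had 1.89 and 0 CPM in ExE and 18.3 and 3.17 CPM in Epi. Its relative Mesp2 had 0.361 and 0 CPM in ExE and 4.8 and 0.595 CPM in Epi, so that replicate 1 was the higher one in both parts for both genes. Tbx6 had at most 1 count in any of the 4 libraries. The calls of Mixl1 and Sp5 ended without each of the 4 libraries, that of Sp5 also with total-count scaling, that of Fst without Epi replicate 1 or ExE replicate 1, and that of Gsc without ExE replicate 1.

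The anterior visceral endoderm is the signalling tissue on one side of the embryonic part. Of 11 tested genes of it, 7 were lower and 0 higher (median -4.31), where 5.18% and 3.66% of all genes tested were. Of those 7, 3 are also epiblast or streak genes of the other lists. Cer1, a secreted antagonist of Nodal, BMP and Wnt (chr4:82881751-82885151), had 0.361 and 0.142 CPM in ExE and 89.9 and 34.0 CPM in Epi (-7.78 ± 1.56). Lefty1, an antagonist of Nodal, had 0 counts in ExE and 18.2 and 14.7 CPM in Epi, and was at least 98.6-fold lower in ExE. Dkk1 and Sfrp1, antagonists of Wnt signals, fell by 1.83 ± 0.43 and 5.27 ± 0.90 on the log2 scale. Hhex, a homeobox gene that anterior and other endoderm share, had 6.40 and 7.80 CPM in ExE and 5.26 and 7.34 CPM in Epi, with overlapping libraries. Without ExE replicate 1, 3 of the 7 calls were left, and without ExE replicate 2, 4. The call of Lefty1 ended without each of the 4 libraries and those of Cer1 and Dkk1 without either ExE library, and Dkk1 also lost its call without Epi replicate 1.

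Markers of the endoderm layers were present in both parts. Of 24 tested visceral endoderm genes, 2 were higher in ExE and 0 lower (median 0.90), where 3.66% and 5.18% of all genes tested were. Levels of these visceral endoderm genes summed to 13990 and 19550 CPM in ExE and 9173 and 14730 CPM in Epi. Apoe, an apolipoprotein, had 2441 and 5247 CPM in ExE and 1682 and 3524 CPM in Epi, so that replicate 2 was the higher one in both parts. Afp, alpha-fetoprotein, had 79.2 and 50.6 CPM in ExE and 321 and 411 CPM in Epi and did not pass (-2.49 ± 1.36). Cubn, an endocytic receptor, had 1030 and 1111 CPM in ExE and 232 and 337 CPM in Epi and did not pass either (1.91 ± 1.15). The called genes were Gata6 (1.99 ± 0.58) and Cited1 (2.51 ± 0.72), and both calls ended without each of the 4 libraries. Visceral endoderm genes called higher in ExE numbered 12 in a fit of the E6.5 groups alone and 10 with no filter. Afp was called lower in ExE under 2 of 13 alternative settings. Of 14 tested parietal endoderm and basement membrane markers, 7 were higher in ExE and 0 lower (median 1.57), with sums of 879 and 1084 CPM in ExE and 285 and 420 CPM in Epi. Lama1, a laminin chain, had 29.9 and 37.0 CPM in ExE and 3.20 and 6.35 CPM in Epi (2.80 ± 0.50), and Pth1r, the parathyroid hormone receptor, had 39.8 and 36.5 CPM in ExE and 5.14 and 6.25 CPM in Epi (2.74 ± 0.54). Thbd, thrombomodulin, had at most 3 counts in any library, and Plat had at most 2.17 and Stra6 at most 1.42 CPM in any. Without Epi replicate 1, 0 of these 7 calls were left, against 4 or 5 without another library. The visceral endoderm sums of the parts thus overlapped, with ExE replicate 1 at 13990 CPM and Epi replicate 2 at 14730 CPM. Parietal endoderm sums were higher in both ExE libraries than in both Epi libraries. The part of either endoderm in the other differences was not tested.

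Targets and feedback genes of these signals formed 3 lists, to be read beside the 3.66% higher and 5.18% lower of all genes tested. Of 14 tested Nodal targets and feedback genes, 5 were lower and 1 higher in ExE (median -1.88), and those lower were Nodal, Lefty1, Cer1, Tdgf1 and Gdf3. Lefty2, a further antagonist, had 0.631 and 0.142 CPM in ExE and 44.9 and 20.8 CPM in Epi. It lay just outside the threshold (-6.23 ± 1.73, edgeR adjusted p = 0.0518) and was called lower under 8 of 13 alternative settings. Smad3, a transducer of Nodal, was higher in ExE, with 19.4 and 19.7 CPM against 6.06 and 4.66 CPM in Epi (1.87 ± 0.49), and lost its call without each of the 4 libraries. Of 15 tested BMP targets, 2 were higher in ExE, Id2 and the inhibitory Smad6 (2.75 ± 0.80), and 0 lower (median 0.76). The related Id genes differed in sign without passing: Id1 had 109 and 102 CPM in ExE and 49.4 and 58.3 CPM in Epi, and Id3 had 129 and 127 CPM in ExE and 303 and 321 CPM in Epi. Of 14 tested FGF-ERK target genes, Dusp6, a phosphatase of ERK, was lower, with 51.5 and 47.9 CPM in ExE and 128 and 92.1 CPM in Epi (-1.15 ± 0.29). Fos, an immediate early gene, was higher, with 8.56 and 10.5 CPM in ExE and 0 and 0.298 CPM in Epi, a ratio of ExE to Epi of 58.5 (19.7 to 286). The list's median was -0.18, and Etv4, Dusp4 and Spry2 had overlapping libraries. The call of Dusp6 ended with total-count scaling (edgeR adjusted p = 0.243) and without every library but Epi replicate 2, that of Smad6 without each of the 4, and that of Fos without Epi replicate 1 (0.0683).

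Of 13 tested genes of the DNA methylation machinery, 1 was higher and 3 lower in ExE (median -0.49). Dnmt3b, the main de novo methyltransferase of the epiblast (chr2:153649411-153687730), had 445 and 595 CPM in ExE and 2673 and 3158 CPM in Epi (-2.49 ± 0.46, edgeR adjusted p = 0.00264). Dnmt3a had 50.9 and 71.6 CPM in ExE and 296 and 309 CPM in Epi (-2.30 ± 0.33, edgeR adjusted p = 0.000322). Both de novo enzymes were thus lower in every ExE library. Dnmt3l, their catalytically inactive partner (chr10:78042287-78063622), was higher, with 52.5 and 70.2 CPM in ExE and 6.74 and 15.6 CPM in Epi (2.45 ± 0.67, edgeR adjusted p = 0.0319). Tet1, which oxidises methylated cytosine, had 43.1 and 47.5 CPM in ExE and 106 and 124 CPM in Epi (-1.35 ± 0.36). The maintenance enzyme Dnmt1 and its partner Uhrf1 did not pass, at -0.49 ± 0.32 and -0.14 ± 0.41. The calls of Dnmt3l and Tet1 ended without each of the 4 libraries, that of Dnmt3b without ExE replicate 1 (edgeR adjusted p = 0.0708), and that of Tet1 also with total-count scaling (0.217). Of 21 tested germline genes, many of which are silenced by promoter methylation, 1 was higher, Zfp42, and 0 lower (median 0.32), a count near the 3.66% of all genes tested that were higher. Of 18 tested Polycomb and histone modifying genes, 1 was higher and 2 lower, where 3.66% and 5.18% of all genes tested were. Phf19, a Polycomb accessory protein, was higher (2.92 ± 0.84). The histone demethylase Kdm5b and the deacetylase Hdac1 were lower (-1.79 ± 0.36 and -1.45 ± 0.39). The core subunits Ezh2, Eed and Rnf2 had overlapping libraries. The calls of Phf19 and Hdac1 ended without each of the 4 libraries, that of Kdm5b without Epi replicate 1 or either ExE library (0.0505 to 0.0713), and those of Kdm5b and Hdac1 with total-count scaling (edgeR adjusted p = 0.0788 and 0.0642).

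Imprinted genes, which are expressed from 1 parental copy and many of which act in the placenta, moved in both directions. Of 27 tested, 8 were higher and 6 lower in ExE (median 0.63), where 3.66% and 5.18% of all genes tested were. Among those higher, Phlda2, a placental growth restrainer, had 457 and 413 CPM in ExE and 19.3 and 19.2 CPM in Epi (4.5 ± 0.82). Igf2, a growth factor, had 161 and 151 CPM in ExE and 8.11 and 16.7 CPM in Epi (3.65 ± 0.53, edgeR adjusted p = 0.000349). Cdkn1c, an inhibitor of cyclin-dependent kinases, had 42.5 and 24.1 CPM in ExE and 6.97 and 6.74 CPM in Epi (2.28 ± 0.56). These 3 genes and Ascl2 and Slc22a18, also higher, lie in the same imprinted region of the distal part of chromosome 7. H19, the non-coding RNA next to Igf2, had 1669 and 2233 CPM in ExE and 158 and 372 CPM in Epi but did not pass (2.88 ± 1.10, edgeR adjusted p = 0.133). Peg10, a retrotransposon-derived placental gene, rose by 3.77 ± 0.77 and Sfmbt2 as given above. The members that fell were Mest, Grb10, Ndn, Magel2, Nnat and Gnas. Mest, paternally expressed in the embryo, had 16.6 and 36.5 CPM in ExE and 193 and 234 CPM in Epi (-3.01 ± 0.53). Nnat, a membrane proteolipid gene, had 1.62 and 1.13 CPM in ExE and 18.7 and 13.4 CPM in Epi (-3.51 ± 0.83). Without ExE replicate 1 the counts were 4 higher and 0 lower, and without Epi replicate 1 they were 3 and 1. The calls of Gnas and Grb10 ended with total-count scaling (edgeR adjusted p = 0.207 and 0.136).

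Cell cycle and Hippo genes changed at single members. Ccnd1 (cyclin D1, chr7:144929931-144939831) had 3.88 and 3.26 CPM in ExE and 131 and 148 CPM in Epi (-5.28 ± 0.45, edgeR adjusted p = 5.10e-06). Ccnd2 had 1.802 and 0.567 CPM in ExE and 22.3 and 15.3 CPM in Epi (-3.89 ± 0.95), whereas Ccnd3 had 103 and 135 CPM in ExE and 105 and 121 CPM in Epi, with overlapping libraries (0.08 ± 0.67). With Cdkn1c, Ccnd1 and Ccnd2 were the called members among 19 tested (1 higher, 2 lower, median -0.38). Of all genes tested, 3.66% were higher and 5.18% lower. The Ccnd2 call ended without Epi replicate 1 or either ExE library and that of Cdkn1c without ExE replicate 1 or either Epi library. Of 17 tested Hippo pathway genes, the co-activator Wwtr1 (TAZ) and its DNA-binding partners Tead1 and Tead4 were higher in ExE and 0 lower (median 0.46). Tead1 had 69.3 and 61.3 CPM in ExE and 10.2 and 14.5 CPM in Epi (2.40 ± 0.39), and Tead4 had 13.9 and 19.6 CPM in ExE and 1.94 and 4.86 CPM in Epi (2.29 ± 0.62). Yap1, a co-activator related to Wwtr1, had 65.8 and 48.5 CPM in ExE and 33.1 and 44.2 CPM in Epi and did not pass. The calls of Wwtr1 and Tead4 ended without each of the 4 libraries. Of 18 epithelial genes, Cldn3, Krt19 and Dsp were higher and Cdh2 and Epcam lower (median 0.36). Cdh2 (N-cadherin) had 0.721 and 0.851 CPM in ExE and 13.4 and 15.1 CPM in Epi (-4.18 ± 0.69), and Cdh1 (E-cadherin) had 152 and 156 CPM in ExE and 105 and 141 CPM in Epi without passing (0.32 ± 0.30). Cldn3, a tight junction protein, had 21.8 and 30.1 CPM in ExE and 1.6 and 2.28 CPM in Epi (3.73 ± 0.55). The call of Epcam ended without each of the 4 libraries and with total-count scaling (edgeR adjusted p = 0.064), and those of Krt19 and Dsp without ExE replicate 1 or either Epi library.

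Of 19 tested glycolysis genes, 1 was higher and 2 lower in ExE (median -0.66), where 3.66% and 5.18% of all genes tested were. Their levels summed to 16050 and 25520 CPM in ExE and 42580 and 41580 CPM in Epi. Ldhb, a lactate dehydrogenase subunit, had 33.0 and 32.8 CPM in ExE and 242 and 229 CPM in Epi (-2.84 ± 0.35, edgeR adjusted p = 7.8e-05). Its partner Ldha had 3350 and 7408 CPM in ExE and 14170 and 13960 CPM in Epi and did not pass (-1.39 ± 0.74). Pkm, pyruvate kinase, had 1592 and 2597 CPM in ExE and 7920 and 7488 CPM in Epi and did not pass either (-1.88 ± 0.66, edgeR adjusted p = 0.0862). Of the phosphofructokinases, Pfkp was higher (1.54 ± 0.42) and Pfkl lower (-1.50 ± 0.45), each losing its call without each of the 4 libraries, and Pfkl also with total-count scaling (edgeR adjusted p = 0.0788). Of 14 tested nutrient transporters, 3 were higher and 2 lower (median 0.26). The cationic amino acid transporters went in opposite directions, with Slc7a1 at 12.7 and 10.1 CPM in ExE and 1.49 and 1.69 CPM in Epi (2.84 ± 0.63), against the fall of Slc7a3. Among the system A and N family, Slc38a4, which is imprinted and placental, rose by 1.52 ± 0.38, and Slc38a1 fell by 2.14 ± 0.37 on the log2 scale. The calls of Slc7a1 and Slc38a4 ended without ExE replicate 1 or either Epi library.

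A larger share of X-linked than of autosomal genes was called, a count made after the values were seen. The paternal X is silenced in extra-embryonic tissue of female mice, whereas the epiblast silences either copy. Of 480 X-linked genes, 46 (9.58%) were higher and 60 (12.5%) lower in ExE, against 483 (4.14%) and 674 (5.78%) of 11670 autosomal genes. The median log2 fold change was 0.06 on the X and 0.01 on the autosomes. The X took 3.87 and 3.60% of counts in ExE and 3.18 and 3.09% in Epi. The highest share of higher calls on an autosome was 5.91% (chromosome 10), and the highest share of lower calls was 7.37% (chromosome 12). Of a run of neighbouring armadillo-repeat genes, Armcx1, Armcx2, Armcx3 and Armcx4 fell by 4.37 ± 0.79, 5.32 ± 0.56, 4.55 ± 0.81 and 2.66 ± 0.61 on the log2 scale. Armcx2 (chrX:134804142-134809221) had 1.08 and 0.567 CPM in ExE and 37.9 and 31.4 CPM in Epi. Armcx6 had 1 count in ExE and 6.40 and 5.55 CPM in Epi, a ratio of Epi to ExE of 108 (19.0 to 4300). The higher genes included the Rhox genes and Plac1 above and Prame, which had 4.33 and 3.69 CPM in ExE and 0 counts in Epi, at least 25.6-fold higher in ExE. Neighbours on a chromosome are not independent of each other, and no test was made.

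**Figure D4:**
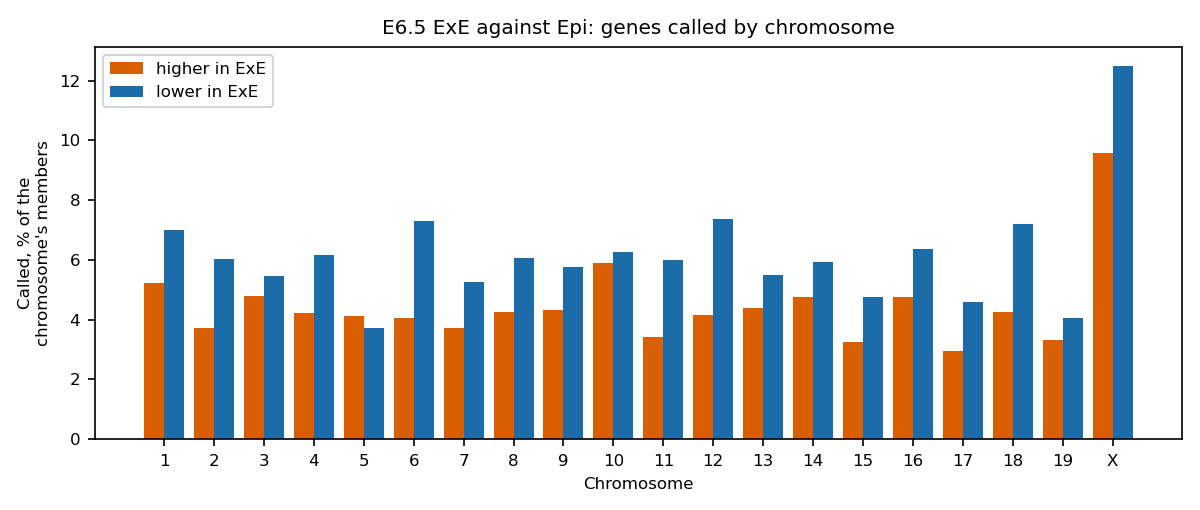
For each chromosome (x axis) the bars give the share of its genes, in %, that were called higher (orange, left) or lower (blue, right) in ExE than in Epi at E6.5. The X reaches 9.58% higher and 12.5% lower, and the autosomes stay at or under 5.91% and 7.37%.

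The same contrast was set beside later stages, which used other libraries of the same fit. For E7.0, where the mean of A and P stood for the embryonic part, 1466 (10.1%) of 14523 genes were higher and 1174 (8.08%) lower. For E7.5, where A, AM and P were averaged, 1938 (13.3%) were higher and 1130 (7.78%) lower. Of the 532 genes higher at E6.5, 443 (83.3%, and 30.2% of the E7.0 calls) were also higher at E7.0, and 405 (76.1%, 20.9% of the E7.5 calls) at E7.5. Of the 752 lower genes, 530 (70.5%, 45.1%) were lower at E7.0 and 418 (55.6%, 37.0%) at E7.5. Genes called in the opposite direction numbered 0 at E7.0, and at E7.5 they were Meis1, higher at E6.5, and Crip2 and Fgf15, lower at E6.5. Fgf15 had 10.8 and 29.8 CPM in ExE at E7.0 and 54.7 and 55.5 CPM in ExE at E7.5, against 1 count at E6.5, and its log2 fold change at E7.5 was 1.52 ± 0.52 (edgeR adjusted p = 0.0480). The P libraries of E7.5, at 127 and 43.3 CPM, lay on both sides of those ExE values. The log2 fold change of Sfmbt2 was 4.5 ± 0.40, 4.46 ± 0.30 and 4.22 ± 0.26 at E6.5, E7.0 and E7.5. The difference of Dnmt3l was 2.45 ± 0.67, 3.47 ± 0.55 and 5.00 ± 0.51 at these stages. Gata3 did not pass at E7.5 (0.18 ± 0.76), where ExE held 9.53 and 16.2 CPM and AM 35.5 and 33.0 CPM.

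Whether the E6.5 difference was unlike that at E7.0 was tested for each gene. By edgeR's quasi-likelihood test 1 of 14523 genes (0.00689%) passed, Ccnd1, and 655 (4.51%) had an unadjusted p under 0.05. Ccnd1 had 3.88 and 3.26 CPM in ExE at E6.5 and 22.2 and 48.3 CPM in ExE at E7.0, while it stood at 131 and 148 CPM in Epi and between 108 and 136 CPM in A and P. Its log2 fold change was -5.28 ± 0.45 at E6.5 and -1.73 ± 0.34 at E7.0, a difference of -3.55 ± 0.50 (edgeR adjusted p = 0.0271). Both ExE libraries of E6.5 lay below both of E7.0, and the embryonic libraries of these stages overlapped. The call ended without 9 of the 10 libraries of these stages (edgeR adjusted p = 0.0844 to 0.81) and held without E7.0 ExE replicate 1, when 449 genes passed. It also ended with total-count scaling and in a fit of the compared groups alone (edgeR adjusted p = 0.175 and 0.0553).

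**Figure D5:**
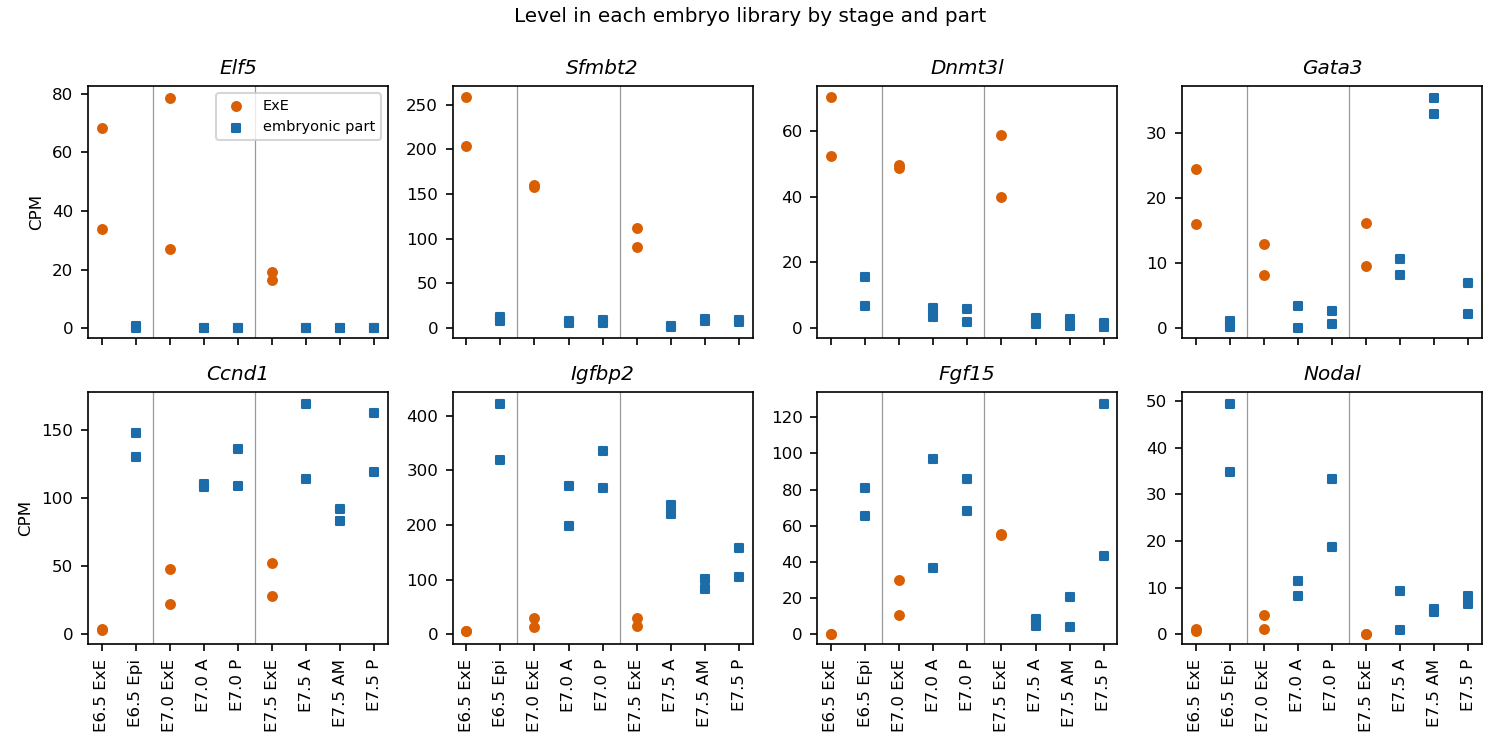
CPM (y axis, linear) of 8 genes in each of the 18 embryo libraries, by stage and part (x axis). Orange circles are ExE and blue squares the embryonic part, 2 libraries per group. Elf5, Sfmbt2 and Dnmt3l stay above the embryonic parts in ExE at all 3 stages. Ccnd1, Igfbp2 and Fgf15 are near 0 in ExE at E6.5 and higher there later. Igfbp2 and Fgf15 did not pass the test of E6.5 against E7.0 (edgeR adjusted p = 0.324 and 0.176).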

How the data were processed

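RNA-seq counts per gene in a deposited table of the embryo libraries were used as the authors deposited them. Each group had 2 libraries and each library was assigned to its group by its label. Per the submitters' processing notes, CASAVA 1.8, TopHat2 2.0.9, BWA and the build mm10 were used. How reads were assigned to genes (program, gene models, strand) is not given in the sources used here. Overlapping, antisense and near-identical genes may share counts. Of the table, 6 columns matched to no sample were not used. RNA was extracted with guanidine thiocyanate and libraries were made with Nextera XT, per the labels' protocols.

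Genes with at least 10 counts in 2 of the 18 embryo libraries (14523) were fitted together in edgeR 4.0.16 (R 4.3.3, TMM scaling, robust quasi-likelihood test, 9 residual degrees of freedom), with p-values adjusted by Benjamini-Hochberg over all of them and called under 0.05. The standard error is the log2 fold change divided by the square root of F. A gene with 1 to 3 counts over a part is given as a ratio with an exact 95% interval, and one with 0 counts as a bound at 3 counts over the group; both cover counting error only. The CPM of 3 counts was 0.270 and 0.425 in ExE and 0.343 and 0.297 in Epi.

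Named genes were the 12 largest rises and falls among called genes without overlap whose log2 CPM averaged 3 or more, the 5 with the smallest p in each direction, called stage differences, and the members of the lists. Some genes that this rule names are not reported here. X-linked genes and those with 0 counts in a part were named after their values were seen. The genes, lists and tests were chosen with earlier results of these data known. Alternatives were DESeq2 1.42.0, its size factors, total-count scaling, other filters, the compared groups alone, a replicate block, adjustment over the 12178 genes alone, and each library left out in turn, where the lone library of a group is assumed to vary like the other groups. Gene positions and promoter windows are from RefSeq on GRCm38.p6, and positions were found for 12154 of the 12178 genes. No comparison of promoters between sets is reported, because 79.2% of higher and 77.1% of lower genes had a window.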

Additional observations from a re-analysis of the deposited data

Results flagged for a closer look

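Ccnd1 stood out because its difference between ExE and the embryonic part was unlike at 2 stages. The log2 fold change at E6.5 minus that at E7.0 was -3.55 ± 0.50 (SE, edgeR adjusted p = 0.0271 over 14523 genes). At E6.5 both ExE libraries lay below both Epi libraries, which concerns that stage alone. Ccnd1 was the only gene past the threshold in the test of the stage difference. Its call ended with total-count scaling and in a fit of the compared groups alone (edgeR adjusted p = 0.175 and 0.0553). With each library of these stages left out in turn, the difference lay between -4.08 and -2.89, but the call ended in most of these fits, as given above.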

How the results depend on the processing

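Of the 532 higher and 752 lower genes, 0 were called in the opposite direction under any alternative. Higher and lower genes numbered 1859 and 1785 in a fit of the E6.5 groups alone, 862 and 1200 with DESeq2, 672 and 391 with total-count scaling, 715 and 1024 with no filter, and 811 and 1036 with a replicate block within each stage. Leaving out each library in turn gave 89 to 295 higher and 202 to 434 lower genes. Stage differences numbered 17 with DESeq2, 79 with no filter, 2 with the replicate block, 0 with total-count scaling, 0 in the compared groups alone, and 0 to 449 with a library left out. The labels do not pair the same-numbered libraries, and the main fit held no replicate block. Deviations of same-numbered ExE and Epi libraries at E6.5 correlated at 0.114 over the 12178 genes, and at 0.0765 without the sex-linked genes. Y-linked and Xist levels, given above, split replicate 1 from replicate 2 alike in both parts. Whether the libraries are paired was not settled. Under the block, 22 list genes not called without it passed, among them Cdx2, Elf3, Hand1, H19, Lefty2 and Pkm (edgeR adjusted p = 0.0404, 0.00218, 0.0182, 0.0121, 0.0246 and 0.0416), and 1 called gene, Pfkl, did not (0.0508). Of 116 called list members and named genes, 106 remained with total-count scaling, 115 with the block or with no filter, 57 without Epi replicate 1, 82 without Epi replicate 2, 61 without ExE replicate 1 and 75 without ExE replicate 2.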

Other observations

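Among genes outside the lists, chosen after their values were seen, several had counts in ExE and 0 in both Epi libraries. Irx2, an Iroquois homeobox gene, had 23.5 and 29.5 CPM in ExE and was at least 162-fold higher there by a floor of 3 counts over the group. Cbfa2t3, a transcriptional co-repressor, had 7.48 and 7.52 CPM in ExE and was at least 47.0-fold higher. Pitx1, a homeobox gene known from hindlimb and pituitary, had 5.05 and 4.68 CPM in ExE and was at least 30.8-fold higher. In all, 35 called genes had 0 counts in both ExE libraries and 12 had 0 in both Epi libraries.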
